A study of Mus musculus with 19 samples.

Results

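Microglia keep their identity through a small set of transcription factors and through one growth factor receptor. The 9 genes described here are Sall1, Spi1, Irf8, Mef2c, Maf and Runx1, which encode transcription factors of microglia and other myeloid cells, Csf1r, which encodes the receptor for colony stimulating factor 1, and Csf1 and Il34, which encode its ligands. They were chosen by name from the 49671 genes of the deposited table, and each symbol matched a single gene. All 9 were tested. PU.1, the product of Spi1, opens and holds myeloid enhancers together with partners such as IRF8, MEF2C and RUNX1, while SALL1 marks microglia among brain macrophages. CSF1R is a receptor tyrosine kinase on which microglia depend for survival. Its ligand IL-34 is made largely by neurons in the brain, and CSF1 largely by glia and microglia.

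The RNA came from brain homogenate enriched for microglia from 19 mice on the B6D2F1/J background. HEM mice overexpressed full-length wild-type human alpha-synuclein from an X-chromosomal transgene under the murine Thy-1 promoter, which is active mainly in neurons, and WT mice were the controls. The older animals, 13 months of age, were 8 HEM and 4 WT, and the younger, 3 months of age, were 4 HEM and 3 WT. Libraries are named by group and animal number, and nothing in the labels gives the sex of the mice or ties the animals to litters. Values are normalized counts, that is reads per gene divided by 1 size factor per library. Differences are log2 fold changes of the value + 1, HEM over WT or 13 over 3 months, each with a standard error. Each adjusted p is two-sided, from limma-trend with the Benjamini-Hochberg method applied across 23973 tested genes. Called means an adjusted p under 0.05.

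Depth ran from 63.3 to 95.8 M reads in genes in HEM libraries at 13 months, against 93.2 to 124.5 M in WT libraries. At 3 months it ran from 74.7 to 112.9 M in HEM and from 83.0 to 106.8 M in WT. The enrichment was partial. The summed level of 12 homeostatic microglia genes was 0.488 to 1.22 M in HEM and 0.729 to 1.14 M in WT libraries at 13 months, while 5 choroid plexus genes summed to 1.35 to 2.66 M in HEM and 3.39 to 4.08 M in WT. The 12 neutrophil genes summed to 71567 to 612933 in HEM and 44608 to 118896 in WT at that age. No marker of either blood or brain cell types was at 0 throughout a group. Whether reads of the transgene, which is driven by the Thy-1 promoter, are counted in mouse Thy1 was not tested. Among 13-month-old mice Thy1 averaged 11922 ± 11012 in the HEM libraries and 4404 ± 2418 in the WT libraries (SD, n = 8 and 4). Among 3-month-old mice Thy1 averaged 27558 ± 15954 in the HEM libraries and 7430 ± 3796 in the WT libraries (SD, n = 4 and 3). Its difference was 1.20 ± 0.49 at 13 months (adjusted p = 0.127) and 1.90 ± 0.62 at 3 months (adjusted p = 1.0, unadjusted p = 0.0061), and neither was called. The Thy1 libraries overlapped between genotypes at 13 months and did not at 3 months. In an earlier analysis of these data 3 libraries stood apart, and the results were also fitted without them. HEM replicate 1 at 13 months and HEM replicate 3 at 3 months had the highest mean log2 levels of 10 neuron genes among the 19 libraries, 12.81 and 12.52. HEM replicate 11 at 13 months had the highest level of the homeostatic microglia genes, 16.23. WT replicate 5 at 3 months was close to it at 16.21, while the next HEM library at 13 months, replicate 4, had 15.63. In such bulk samples, fewer cells of a type and less RNA per cell cannot be told apart.

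The promoters of Runx1 and Csf1, the 2 genes that lay farthest above WT at 13 months, are shown first. RefSeq windows on GRCm38.p6, from 250 bases before to 50 bases after an annotated start, were at hand for 5 of the 9 genes, as 11 windows. Runx1 has 2 start sites, an upstream one at chr16:92826025-92826324 and a downstream one at chr16:92697280-92697579, both on the minus strand. Csf1 has 1, at chr3:107760420-107760719, also on the minus strand. Each is written 5′ to 3′ along the gene, with matches to the motifs named below in capitals.
Runx1 upstream: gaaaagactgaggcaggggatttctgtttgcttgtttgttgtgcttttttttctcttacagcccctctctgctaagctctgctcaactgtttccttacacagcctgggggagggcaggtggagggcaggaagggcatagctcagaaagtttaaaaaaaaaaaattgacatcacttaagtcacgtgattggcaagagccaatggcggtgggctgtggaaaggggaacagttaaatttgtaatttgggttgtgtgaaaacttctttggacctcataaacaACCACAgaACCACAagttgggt
Runx1 downstream: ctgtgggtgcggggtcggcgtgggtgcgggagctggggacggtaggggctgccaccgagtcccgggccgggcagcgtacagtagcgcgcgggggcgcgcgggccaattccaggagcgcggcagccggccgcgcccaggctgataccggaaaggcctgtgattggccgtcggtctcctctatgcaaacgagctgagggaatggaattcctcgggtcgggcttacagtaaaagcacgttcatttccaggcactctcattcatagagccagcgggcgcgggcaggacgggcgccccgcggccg
Csf1: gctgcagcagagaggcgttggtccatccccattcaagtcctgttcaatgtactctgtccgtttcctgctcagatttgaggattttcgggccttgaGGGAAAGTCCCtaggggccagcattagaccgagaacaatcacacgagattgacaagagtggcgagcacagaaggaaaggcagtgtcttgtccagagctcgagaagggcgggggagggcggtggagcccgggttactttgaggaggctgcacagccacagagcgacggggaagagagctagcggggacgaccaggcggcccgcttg
The searches covered both strands of each window. The capitals in the upstream Runx1 window are matches to the RUNX motif TGTGGT, read on the opposite strand, which begin at bases 29 and 37 after the start. The RUNX motif occurs in 16.8% of all 32851 windows and in 1 of the 11 windows here. The capitals in the Csf1 window are matches to the NF-kB motif GGGANNNTCC, 1 on each strand, that overlap each other and begin 155 and 154 bases before the start. That motif occurs in 4.59% of all windows and in 2 of the 11 here, the other being a Sall1 window. The PU.1 motif GAGGAAG (13.6% of all windows) and the AP-1 motif TGANTCA (7.81%) occurred in 1 of the 11 windows each, both in Mef2c. The IRF motif GAAANNGAAA (3.44%) and the MEF2 motif CTANNNNTAG (3.69%) occurred in 0 of the 11. A match is a description of letters and not of a bound site.

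Between genotypes at 13 months none of the 9 genes was called. The background is that 12.2% of all tested genes were called in this comparison, 4.87% as higher and 7.3% as lower in HEM mice. The differences of the 9 genes had a median of 0.10 on the log2 scale, against 0.03 over all tested genes. Runx1 and Csf1 came closest to a call, both with higher levels in HEM mice, with unadjusted p of 0.0123 and 0.0076, and the other 7 had 95% intervals that included 0.

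**Figure D1:**
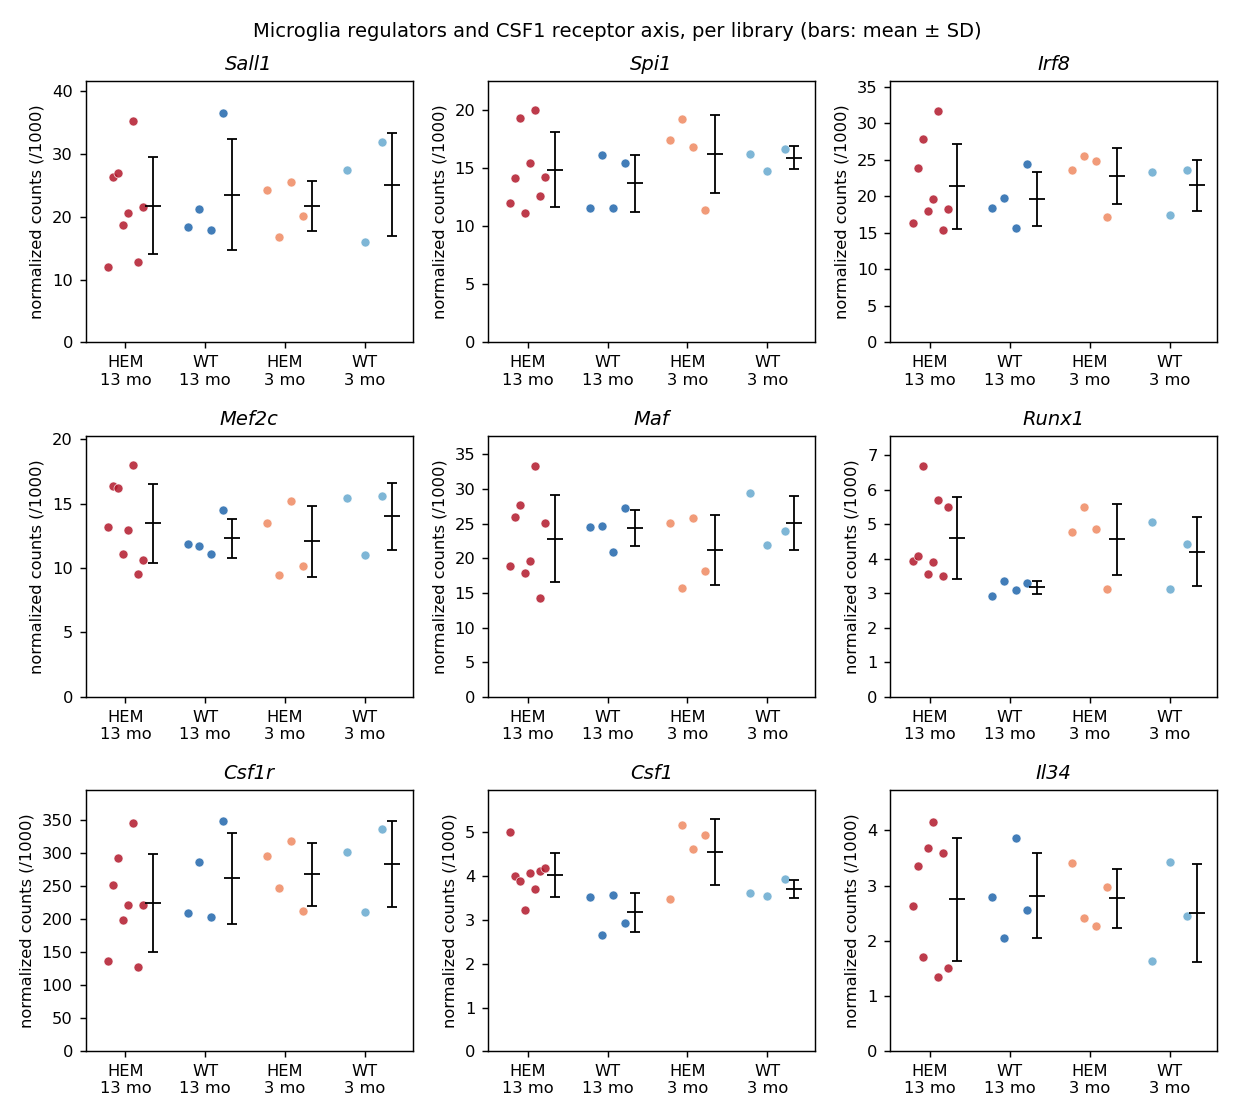
Normalized counts (in units of 1000, linear axis from 0) of the 9 genes in each library, by group, with the group mean and SD as black bars. Runx1 is the single gene whose HEM and WT libraries at 13 months do not overlap, at 3507 to 6700 against 2928 to 3368.

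Among the transcription factors, Runx1 had the largest difference. The gene (ENSMUSG00000022952, mm10 chromosome 16, 92601466 to 92826149, minus strand) encodes a factor needed for the emergence of blood and of the yolk sac progenitors from which microglia arise. It had 3507 normalized counts in the lowest, 4016 at the median and 6700 in the highest of the 8 HEM libraries at 13 months. The 4 WT libraries had 2928, 3368, 3109 and 3292. Every HEM library thus lay above every WT library. Groups without overlap, in either direction, were found for 1 of the 9 genes and for 6.66% of all tested genes. The difference was 0.50 ± 0.18 (adjusted p = 0.0791, 95% interval 0.12 to 0.88) and was not called. It was called by DESeq2 on the recovered reads (adjusted p = 0.0338) and with the level of the homeostatic microglia genes in the model (0.61, adjusted p = 0.0204). With the level of neutrophil and erythroid genes in the model, where 0 of all tested genes were called, it was 0.37 (adjusted p = 0.745). With each library left out in turn the adjusted p ran from 0.0542 to 0.163. Without the 3 libraries that stood apart it was 0.48 (adjusted p = 0.126).

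The level of neutrophil and monocyte genes moved with genotype at the same age. The mean log2 level of the 12 neutrophil genes was 11.84 to 14.98 in HEM and 11.09 to 12.52 in WT libraries at 13 months. The 7 monocyte genes summed to 10990 to 59680 normalized counts in HEM and 5056 to 9162 in WT libraries. RUNX1 is made in those cells as well as in microglia. Over the 19 libraries Runx1 had a Pearson r of 0.39 with the neutrophil list and 0.41 with the monocyte list, or 0.14 and 0.08 with group means removed. The part of these cells in the Runx1 difference was not tested beyond the fit with the neutrophil and erythroid level as a covariate. No fit used the monocyte level.

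Spi1 (ENSMUSG00000002111, mm10 chromosome 2, 91082390 to 91115756, plus strand) encodes PU.1, the factor that myeloid cells cannot form without. In HEM mice at 13 months it had 11156 normalized counts in the lowest, 14177 at the median and 19968 in the highest library, and in WT mice 11520, 16101, 11583 and 15414. The groups overlapped throughout, with a difference of 0.11 ± 0.16 (adjusted p = 0.763, 95% interval -0.23 to 0.45). Irf8 (ENSMUSG00000041515, mm10 chromosome 8, 120736358 to 120756694, plus strand) encodes a factor that pairs with PU.1 on composite DNA elements. It had 15359, 18982 and 31731 normalized counts at the lowest, median and highest HEM library, against 18464, 19781, 15666 and 24485 in WT. Its difference was 0.10 ± 0.18 (adjusted p = 0.811, 95% interval -0.28 to 0.48).

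Sall1 (ENSMUSG00000031665, mm10 chromosome 8, 89027235 to 89044162, minus strand) encodes a zinc finger repressor that keeps microglia apart from other macrophages. It ran from 12037 over a median of 21097 to 35282 normalized counts in HEM mice at 13 months, against 18403, 21279, 17936 and 36642 in WT mice. Both the HEM and the WT range were wide, and HEM replicates 1 and 12, at 12037 and 12886, lay below all WT libraries. The difference was -0.13 ± 0.27 (adjusted p = 0.838, 95% interval -0.69 to 0.43). Those 2 HEM libraries also had high mean levels of the neutrophil list, 14.50 and 14.98, and the lowest of the homeostatic microglia list, 15.12 and 14.74. HEM replicates 4, 8 and 13 had neutrophil levels of 14.4, 14.4 and 14.5 as well. Their Sall1 values, 26973, 20555 and 21639, lay within the WT range. The part of neutrophils and microglia in the Sall1 values was not tested beyond the covariate fits. The difference ran from -0.24 to 0.10 over libraries left out in turn. It was positive, at 0.38, with neutrophil and erythroid genes in the model, and at 0.14 with homeostatic microglia genes in the model.

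Mef2c (ENSMUSG00000005583, mm10 chromosome 13, 83504034 to 83667080, plus strand) and Maf (ENSMUSG00000055435, mm10 chromosome 8, 115682942 to 115707794, minus strand) encode factors of the adult, quiescent microglial program. Mef2c, a MADS box factor that restrains microglial inflammatory responses, had 9537, 13059 and 18002 normalized counts at the lowest, median and highest HEM library at 13 months and 11893, 11694, 11077 and 14511 in WT. Maf, a leucine zipper factor of tissue macrophages, had 14195, 22304 and 33309 in HEM and 24542, 24590, 20897 and 27243 in WT. HEM libraries spread to both sides of the WT range for both genes. The differences were 0.11 ± 0.17 for Mef2c (adjusted p = 0.778) and -0.13 ± 0.19 for Maf (adjusted p = 0.747). Their 95% intervals were -0.25 to 0.47 for Mef2c and -0.53 to 0.26 for Maf.

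Csf1r, the receptor, was by far the most abundant of the 9. It had 127767 normalized counts in the lowest, 222148 at the median and 346891 in the highest HEM library at 13 months. The WT libraries had 209745, 286576, 203096 and 349129. HEM replicates 1, 7 and 12 were below the WT range, with 136560, 199808 and 127767, and no HEM library was above it. The difference of -0.26 ± 0.24 was not called (adjusted p = 0.585, 95% interval -0.76 to 0.25). Csf1r (ENSMUSG00000024621, mm10 chromosome 18, 61100598 to 61132149, plus strand) shares 15.1% of its exon bases with Hmgxb3 on the opposite strand. Since no strand setting is given for the counting, reads of the 2 genes cannot be told apart there. Hmgxb3 averaged 2479 ± 384 in HEM and 2622 ± 477 in WT mice at 13 months (SD, n = 8 and 4), far below Csf1r. What the shared bases add to or take from the Csf1r counts was not tested.

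The ligand Csf1 (ENSMUSG00000014599, mm10 chromosome 3, 107741048 to 107760469, minus strand) is a secreted and membrane-bound cytokine. Its gene had 3216, 4033 and 4994 normalized counts at the lowest, median and highest HEM library at 13 months. In WT mice the values were 3519, 2658, 3571 and 2918. All HEM libraries but replicate 7, at 3216, lay above the WT range, so 7 of 8 did. The difference was 0.35 ± 0.12 (adjusted p = 0.0579, 95% interval 0.10 to 0.59), just outside the threshold. It was called by DESeq2 (adjusted p = 0.0343), with low genes filtered at 50 (adjusted p = 0.0466), and when HEM replicate 7 at 13 months, WT replicate 6 at 13 months or HEM replicate 1 at 3 months was left out (adjusted p = 0.0243, 0.0489 and 0.0349). Over all libraries left out in turn, the adjusted p ran from 0.0243 to 0.229. With neutrophil and erythroid genes in the model, where 0 of all tested genes were called, the difference was 0.26 (adjusted p = 0.694). Without the 3 libraries that stood apart it was 0.31 (adjusted p = 0.0953).

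Il34 (ENSMUSG00000031750, mm10 chromosome 8, 110741829 to 110805924, minus strand) encodes the other ligand, which binds the same receptor with no likeness in sequence to CSF1. It had 1345, 2998 and 4158 normalized counts at the lowest, median and highest HEM library at 13 months, against 2802, 2048, 3869 and 2549 in WT. 3 of the 8 HEM libraries lay below the WT range and 1 above it. The difference was -0.11 ± 0.29 (adjusted p = 0.874, 95% interval -0.73 to 0.50). The 2 ligands were also set against each other within each library, per length. The ratio of Il34 to Csf1 ran from 0.974 to 3.09 in HEM libraries at 13 months (median 1.85) and from 2.08 to 2.92 in WT libraries (median 2.25), so the groups overlapped.

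**Figure D2:**
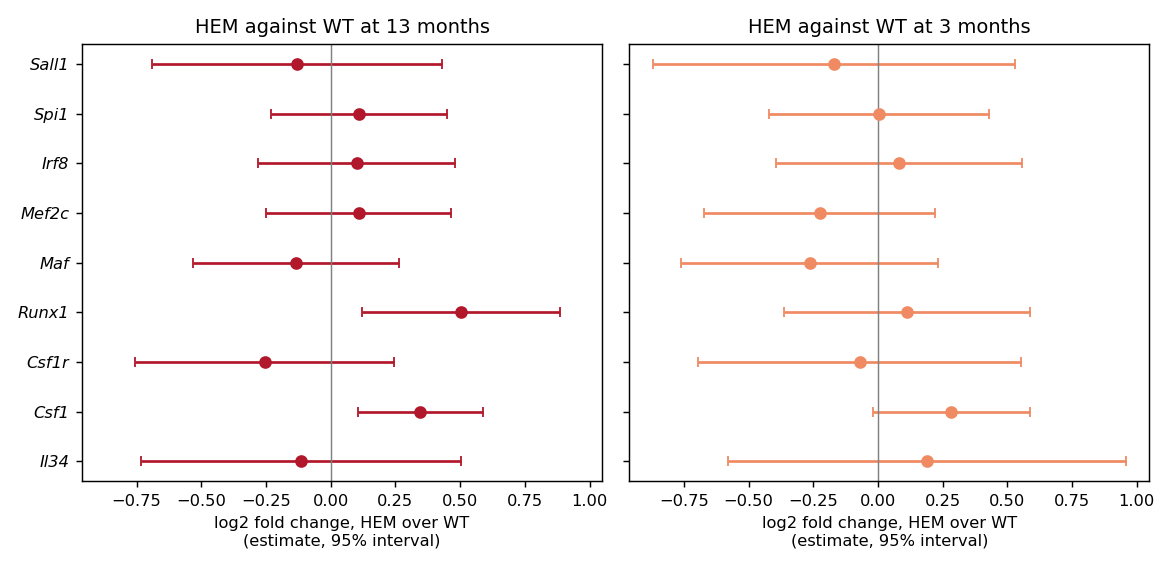
Log2 fold changes, HEM over WT, of the 9 genes at 13 months (left) and 3 months (right), as limma estimates (points) with 95% intervals (bars). At 13 months the intervals of Runx1 (0.12 to 0.88) and Csf1 (0.10 to 0.59) exclude 0, and at 3 months none does.

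At 3 months, with or without the libraries that stood apart, none of the 9 genes was called between genotypes, and 0% of all tested genes were. An unadjusted p under 0.05 was reached by 924 of the 23973 tested genes, a number that can arise where no gene differs. DESeq2 called 6. The Runx1 libraries overlapped at this age, with 4789, 5504, 4858 and 3115 normalized counts in HEM mice and 5078, 3140 and 4427 in WT mice. The difference of Runx1 was 0.11 ± 0.23 (95% interval -0.36 to 0.59). Csf1 had 3476, 5156, 4604 and 4922 in HEM and 3618, 3533 and 3924 in WT mice, with 3 of the 4 HEM libraries above the WT range and replicate 1 below it. Its difference was 0.28 ± 0.14 (adjusted p = 1.0, 95% interval -0.02 to 0.59).

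The remaining factors also overlapped at 3 months. Sall1 had 24372, 16870, 25515 and 20159 normalized counts in HEM mice and 27528, 16003 and 31910 in WT mice. Spi1 had 17415, 19188, 16771 and 11398 in HEM and 16214, 14737 and 16632 in WT. Irf8 had 23586, 25581, 24826 and 17220 in HEM and 23405, 17525 and 23563 in WT. For these factors, HEM replicate 3 was at the top for Spi1 and Irf8 and at the bottom for Sall1 within its group. Mef2c ran from 9443 to 15208 in HEM and from 11018 to 15589 in WT, and Maf from 15662 to 25863 in HEM and from 21834 to 29338 in WT. Csf1r ran from 212235 to 318502 in HEM and from 211478 to 336995 in WT. Il34 ran from 2271 to 3415 in HEM and from 1643 to 3427 in WT. The differences of the 9 genes ran from -0.26 for Maf to 0.28 for Csf1, each with an adjusted p of 1.0. None of the 9 had groups without overlap, as 5.86% of all tested genes did.

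The change of the genotype difference between the ages was tested directly. It was called for none of the 9 genes and for 0% of all tested genes. Of the 23973 tested genes, 3551 had an unadjusted p under 0.05. DESeq2 called 938 genes and none of the 9. For Runx1 the difference at 13 months exceeded that at 3 months by 0.39 ± 0.29 (adjusted p = 0.589, 95% interval -0.22 to 0.999), and for Mef2c by 0.33 ± 0.27 (adjusted p = 0.635). Csf1 had nearly the same estimate at both ages, and the change was 0.06 ± 0.18 (adjusted p = 0.919, 95% interval -0.32 to 0.45). For Csf1r it was -0.18 ± 0.38 (adjusted p = 0.879).

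With age, none of the 9 genes was called in either genotype, by limma or by DESeq2, and none had an unadjusted p under 0.05. In HEM mice 1.62% of all tested genes were called between 13 and 3 months (0.934% higher and 0.684% lower at 13 months), and in WT mice 0.709% (0.463% higher and 0.246% lower). Csf1r had the largest estimate in HEM mice, -0.31 ± 0.24 (adjusted p = 0.548, 95% interval -0.81 to 0.19), and in WT mice it was -0.12 ± 0.30 (adjusted p = 0.891). Runx1 had 0.01 ± 0.18 in HEM mice (adjusted p = 0.990) and -0.38 ± 0.23 in WT mice (adjusted p = 0.444, 95% interval -0.86 to 0.09). In WT mice 8 of the 9 estimates were negative, with a median of -0.14, against -0.01 over all tested genes. The exception was Il34 at 0.19 ± 0.37 (adjusted p = 0.858). In HEM mice 6 of 9 were negative, with a median of -0.11, against 0.00 over all tested genes. The 13-month and 3-month libraries overlapped for all 9 genes in both genotypes, where 2.79% of all tested genes did not overlap in HEM mice and 15.3% in WT mice.

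Levels were compared between genes per kilobase of exon. In HEM mice at 13 months Csf1r had 38979 ± 12783 normalized counts per kilobase, against 45399 ± 11997 in WT (SD, n = 8 and 4, as for the values that follow). Spi1 came next with 5507 ± 1205 in HEM and 5067 ± 907 in WT, followed by Sall1 with 4141 ± 1462 in HEM and 4476 ± 1679.5 in WT. Irf8 had 3031 ± 832 in HEM and 2778 ± 522 in WT, and Maf 2768 ± 758 in HEM and 2951 ± 316 in WT. Sall1 was below Spi1 in all 8 HEM libraries, at 0.513 to 0.951 of its level per length (median 0.749). It lay on both sides of Spi1 in WT libraries, at 0.677 to 1.22 (median 0.805), so the groups overlapped. At 3 months the ratio was below 1 in all libraries, at 0.450 to 0.905 in HEM and 0.556 to 0.982 in WT. The gap between Irf8 and Maf was smaller than the spread between libraries, and their order differed between the genotypes. Il34 had 1404 ± 564 in HEM and 1438 ± 392 in WT. Mef2c had 858 ± 195 in HEM and 782 ± 96.6 in WT, close to Csf1 with 761 ± 94.7 in HEM and 599.6 ± 85.3 in WT. Runx1 was the lowest, at 384 ± 98.7 in HEM and 264 ± 16.4 in WT. Per length, Runx1 was 0.00779 to 0.0139 of Csf1r in HEM libraries and 0.00453 to 0.00735 in WT libraries at 13 months, and the ranges did not overlap. Relative to Spi1 it was 0.0569 to 0.0871 in HEM and 0.0469 to 0.0601 in WT libraries at that age, and these ranges did overlap. How many ratios of other genes separate the groups was not computed. At 3 months the ranges relative to Csf1r were 0.00705 to 0.0107 in HEM and 0.00631 to 0.00805 in WT.

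From library to library Sall1, Spi1, Irf8, Mef2c, Maf and Csf1r varied together, with a Pearson r between 0.49 and 0.92 for each pair, while Runx1 followed some of them and the ligands followed none. Over the 19 libraries, which share their preparation and carry the group differences too, the log2 level of Csf1r had a Pearson r of 0.92 with Sall1, 0.84 with Irf8, 0.77 with Maf, 0.73 with Spi1 and 0.66 with Mef2c. With group means removed it was 0.95 for Sall1. Runx1 had 0.43 with Csf1r over all libraries and 0.69 with group means removed. It had 0.40 with Sall1, 0.45 with Mef2c and 0.38 with Maf, and more with Spi1 (0.76) and Irf8 (0.71). With group means removed these were 0.56, 0.52, 0.64, 0.81 and 0.76. Il34 had negative values with the 6 factors and with Csf1r, from -0.67 with Runx1 to -0.42 with Mef2c, and near 0 with Csf1 (-0.005). These values are descriptions of 19 libraries.

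**Figure D3:**
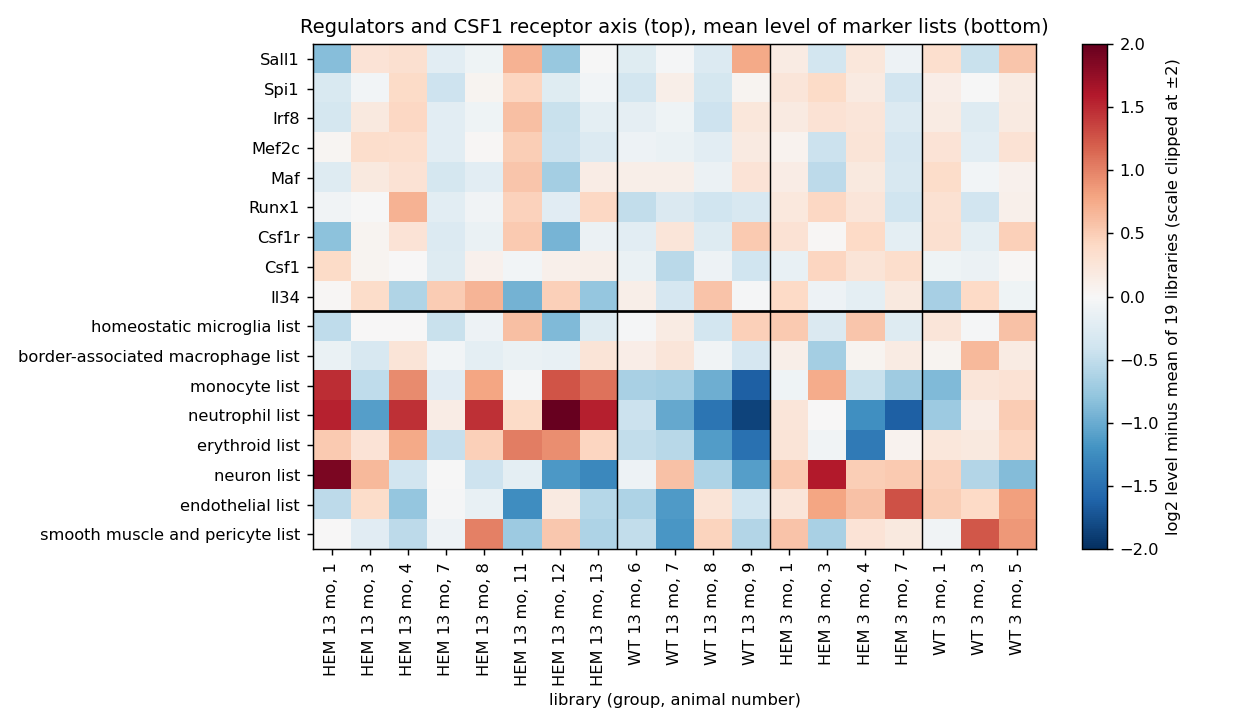
Log2 level of the 9 genes (above the line) and mean log2 level of 8 marker lists (below it) in each of the 19 libraries, minus the mean over libraries, on a colour scale clipped at ±2. HEM replicate 11 at 13 months is high across Sall1 to Csf1r and lowest in Il34 (1345), and HEM replicates 1 and 12 at that age are low in Csf1r and high in the neutrophil and monocyte lists. HEM replicates 4, 8 and 13 at that age are high in those lists as well, with Csf1r at 292829, 221716 and 222579, within the WT range.

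Over the 19 libraries all of the factors but Runx1, and Csf1r, tracked the homeostatic microglia genes, a list of surface proteins and enzymes such as Tmem119 and P2ry12. The r with the mean level of that list was 0.92 for Csf1r, 0.85 for Sall1, 0.80 for Maf, 0.75 for Irf8, 0.73 for Mef2c and 0.65 for Spi1, but 0.31 for Runx1, -0.32 for Csf1 and -0.41 for Il34. With group means removed Runx1 had 0.54, nearer to the other factors and Csf1r, which ran from 0.69 for Spi1 to 0.90 for Csf1r. Runx1 had its highest value, 0.89, with the list of other myeloid regulators described below. Csf1 had 0.74 with a list of related growth factors and their receptors. Il34 had 0.63 with smooth muscle and pericyte genes, or 0.83 with group means removed, and 0.43 with endothelial genes, or 0.67 with group means removed. With neuron genes it had -0.01.

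The tested genes most like each of the 9 across the libraries were named by Pearson r among 15078 genes with a mean log2 level of at least 5. Among the closest to Csf1r were Daglb (0.97), an enzyme of endocannabinoid synthesis, and Golm1 (0.96), a Golgi membrane protein. Among the closest to Sall1 were Srgap2 and Nckap1l (0.94 each), which encode regulators of the actin cytoskeleton. For Spi1 they included Lrrc25 (0.93) and Ptpn6 (0.91), a phosphatase that dampens cytokine receptors. Irf8 had Bin2 (0.96), Hps4 (0.94) and Vav1 (0.94) as its closest. For Mef2c these were Cd33 (0.93), a sialic acid receptor, Pwwp2a (0.90) and Kctd12 (0.89), and for Maf they were Sft2d1 (0.89), Fam91a1 (0.88) and Slc5a10 (0.88).

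The closest genes to Runx1 were Sla (0.91), an adaptor that damps antigen receptor signalling, Cd14 (0.90), the lipopolysaccharide co-receptor, and Il4ra (0.89), the interleukin-4 receptor chain. Csf1 had weaker neighbours, namely Map3k8 (0.82), a kinase of the inflammatory MAP kinase route, Vopp1 (0.82) and Ctla2a (0.81). With group means removed these were 0.63, 0.75 and 0.69. Il34 was followed by Hsf4 (0.91), a heat shock factor, Lamc3 (0.91), a laminin chain, and Trpc4 (0.89), a cation channel, and with group means removed by 0.93, 0.95 and 0.92 for the same genes. Of these genes Ptpn6 also stands in the list of CSF1R signalling genes.

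Other regulators of the same families and lineage were also compared at 13 months, and whether they differed from the 9 was not tested. Of 28 such transcription factors, 13 (46.4%) were higher in HEM mice and none was lower, against 4.87% and 7.3% of all tested genes, and their median difference was 0.39. Irf1, an interferon-induced relative of Irf8, ran from 5614 to 10655 normalized counts in HEM mice (median 7491) and from 4207 to 4547 in WT mice, and rose by 0.78 ± 0.14 (adjusted p = 0.00265). Gfi1, a repressor of the granulocyte lineage, ran from 366 to 1562 in HEM and from 115 to 316 in WT and rose by 2.17 ± 0.42 (adjusted p = 0.00354). For both genes all HEM libraries lay above all WT libraries.

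Both sisters of Runx1 were among the 13. Runx2, best known from bone, ran from 659 to 1465 normalized counts in HEM and from 463 to 572 in WT mice and rose by 1.02 ± 0.20 (adjusted p = 0.00398). Runx3, a factor of lymphocytes and other leukocytes, ran from 1213 to 2422 in HEM and from 554 to 1173 in WT and rose by 1.17 ± 0.25 (adjusted p = 0.00499). Cbfb, the shared partner that RUNX proteins need to bind DNA well, had 0.21 ± 0.09 (adjusted p = 0.136). The other called genes were Ets1, Ets2, Elf1, Fli1, Etv6, Irf4, Myb, Bhlhe40 and Cebpb, with differences from 0.37 for Elf1 to 1.66 for Myb. The close relatives of Mef2c were not called, with 0.19 ± 0.16 for Mef2a (adjusted p = 0.533) and 0.10 ± 0.12 for Mef2d (adjusted p = 0.669). Sall3, a relative of Sall1, had -0.11 ± 0.25 (adjusted p = 0.862).

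Of the 13 called regulators, 0 were called with neutrophil and erythroid genes in the model, where 0 of all tested genes were, and the median of the 28 was then 0.34. Leaving out HEM replicates 1 and 11 at 13 months and HEM replicate 3 at 3 months left 8 called, as did leaving out WT replicate 7, 8 or 9 at 13 months alone. Beside them, the called genes of the marker lists at 13 months were 11 of 12 neutrophil, 5 of 7 monocyte, 5 of 9 T and NK cell, 3 of 8 erythroid and 1 of 7 B cell genes, all higher in HEM. Lower in HEM were all 5 choroid plexus genes, 2 of 12 homeostatic microglia genes (16.7%) and 1 of 7 astrocyte genes (14.3%). Of all tested genes 4.87% were called as higher and 7.3% as lower. None was called of 8 border-associated macrophage, 10 neuron, 7 oligodendrocyte, 7 endothelial and 6 smooth muscle and pericyte genes. Over single libraries left out these counts ran from 4 to 12 for neutrophil, 2 to 6 for monocyte, 1 to 6 for T and NK cell, 1 to 6 for erythroid, 0 to 1 for B cell, 0 to 2 for homeostatic microglia and 0 to 1 for astrocyte genes, and stayed at 5 for choroid plexus genes. Without WT replicate 9 at 13 months they were at the low end of each of these ranges. Border-associated macrophage genes had 1 call without HEM replicate 3 at 13 months. The part of those cells in the regulators' difference was not tested beyond this covariate.

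**Figure D4:**
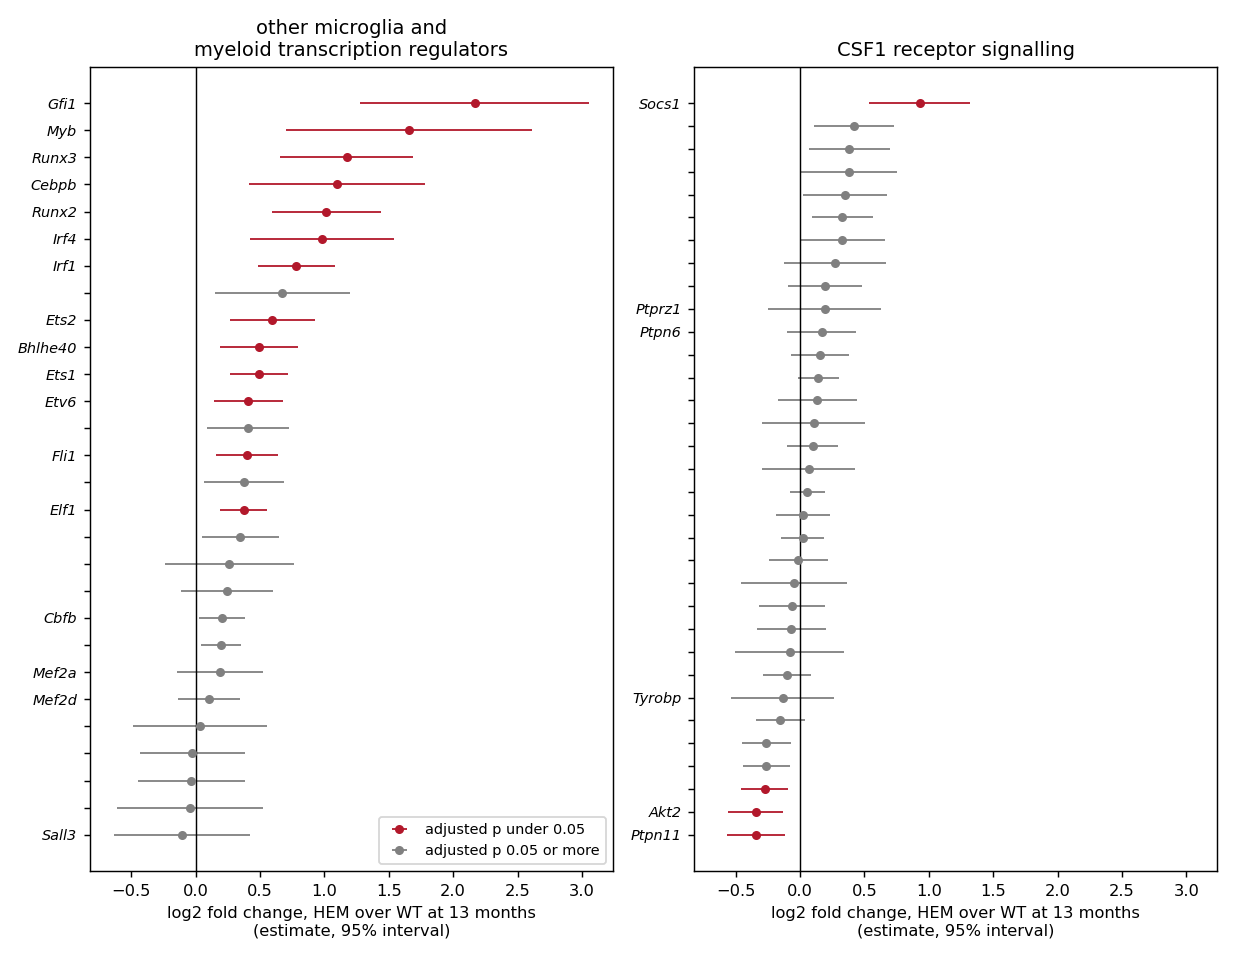
Log2 fold changes, HEM over WT at 13 months, of 28 other myeloid transcription regulators (left) and 33 CSF1R signalling genes (right), sorted, with 95% intervals, called genes in red and symbols for genes named in the text. In the left panel 13 genes are called, all above 0, and in the right panel 1 above and 3 below 0.

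Downstream of the receptor, the genes of CSF1R signalling were called at the rate of the whole table. Of 33 such genes 1 was higher and 3 were lower in HEM mice at 13 months (12.1% called, against 12.2% of all tested genes), with a median of 0.07. Socs1, a feedback inhibitor of cytokine signalling, ran from 1329 to 2199 normalized counts in HEM and from 640 to 1112 in WT mice and rose by 0.93 ± 0.19 (adjusted p = 0.00402). Akt2, a kinase below PI3-kinase, fell by 0.34 ± 0.10 (adjusted p = 0.0322), with 11120 to 16077 in HEM and 14664 to 19818 in WT. Ptpn11, the phosphatase SHP2 that carries the signal to Ras, also fell by 0.34 ± 0.11 (adjusted p = 0.0419), with 10235 to 15766 in HEM and 14678 to 18521 in WT. Without the 3 libraries that stood apart, 3 of the 33 were called as higher and 0 as lower. The fit of the 13-month groups alone called 0 of the 33 as lower, and over single libraries left out the number ran from 0 to 4. Tyrobp, the DAP12 adaptor that couples to CSF1R in myeloid cells, had -0.13 ± 0.19 (adjusted p = 0.748).

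Among 16 growth factors and receptors related to this axis, 15 were tested. Of these, 2 (13.3%) were higher in HEM mice at 13 months and none was lower, against 4.87% and 7.3% of all tested genes. Their median difference was 0.39. Flt3, a receptor tyrosine kinase of the same class as CSF1R found on blood progenitors and dendritic cells, ran from 555 to 1266 normalized counts in HEM and from 233 to 384 in WT, and rose by 1.24 ± 0.25 (adjusted p = 0.00398). Csf2ra, a chain of the receptor for the granulocyte and macrophage factor GM-CSF, ran from 9022 to 18762 in HEM and from 8951 to 10063 in WT and rose by 0.56 ± 0.17 (adjusted p = 0.0394). Kit, another receptor of that class, had 0.57 ± 0.24 (adjusted p = 0.139). Without the 3 libraries that stood apart 1 of the 15 was called. The number was also 1 without any 1 of the 4 WT libraries at 13 months or without HEM replicate 1, 4, 8, 11 or 13 at that age, and over all libraries it ran from 1 to 3. With neutrophil and erythroid genes in the model, where 0 of all tested genes were called, the difference was 0.64 for Flt3 (adjusted p = 0.563) and 0.21 for Csf2ra (adjusted p = 0.866). Of 15 genes of TGF-beta signalling, on which the microglial program rests, 1 was called (6.67%, against 12.2% of all tested genes). This was Tgfb2, which fell by 0.62 ± 0.16 (adjusted p = 0.0142) with 4917 to 6932 in HEM and 7912 to 9693 in WT. Without WT replicate 8 or 9 at 13 months Tgfb2 was not called, at -0.57 and -0.58 (adjusted p = 0.0542 and 0.0536), nor with neutrophil and erythroid genes in the model, at -0.43 (adjusted p = 0.592). TGF-beta 1, the ligand that microglia depend on, had -0.03 ± 0.15 for its gene Tgfb1 (adjusted p = 0.943), and its receptor gene Tgfbr1 had -0.08 ± 0.21 (adjusted p = 0.886).

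At 3 months 0 genes of all these lists were called, and the medians of the 28 regulators and of the 33 signalling genes were -0.02 each. With age in WT mice, 2 of the 28 regulators (7.14%) were lower at 13 than at 3 months, against 0.246% of all tested genes. Ets2 fell by 1.07 ± 0.20 (adjusted p = 0.0224), with 3024 to 4734 normalized counts at 13 months and 6446 to 9318 at 3 months, and Ets1, an ETS factor of lymphocytes and vessels, fell by 0.59 ± 0.13 (adjusted p = 0.0483), with 8920 to 10784 at 13 months and 11595 to 17002 at 3 months. Leaving out WT replicate 7 or 9 at 13 months, or any 1 of the 3 WT libraries at 3 months, left 0 of the 28 called, and over all libraries the number ran from 0 to 3. Over all tested genes the 170 calls of this comparison also fell, to 0 and 4 without WT replicate 7 or 9 at 13 months. They fell to 0, 1 and 0 without WT replicate 1, 3 or 5 at 3 months. In the same comparison 2 of 6 smooth muscle and pericyte genes (33.3%) were lower at 13 months, Myh11 with -2.77 ± 0.48 (adjusted p = 0.0218) and Acta2 with -2.93 ± 0.58 (adjusted p = 0.0305), and leaving out any of those same libraries left 0 of the 6 called. Of 7 astrocyte genes 1 (14.3%) was higher, against 0.463% of all tested genes, and 0 to 2 were over libraries left out. The 7 endothelial genes had a median of -1.15 with 0 called, the 12 neutrophil genes one of -1.10 and the 7 monocyte genes one of -1.01, also with 0 called. The part of those cells in the Ets1 and Ets2 differences was not tested. In the HEM mice none of the 28 regulators was called with age. Of the signalling genes Ptprz1, a phosphatase of glial progenitors and another receptor for IL-34, was higher at 13 than at 3 months in HEM mice, by 1.12 ± 0.21 (adjusted p = 0.0169), with 12950 to 26470 at 13 months and 5778 to 11905 at 3 months. It was not called without HEM replicate 1 at 3 months (0.92, adjusted p = 0.0711) or without the 3 libraries that stood apart (1.08, adjusted p = 0.0536). Nor was it called with neutrophil and erythroid genes in the model (1.05, adjusted p = 0.306), where 0 of all tested genes were. In that comparison 3 of 7 astrocyte genes were higher at 13 months, Slc1a2 by 1.42 ± 0.26, Slc1a3 by 1.38 ± 0.25 and Aldoc by 1.04 ± 0.21 (adjusted p = 0.0162, 0.0162 and 0.0208), and 2 of 7 endothelial genes were lower. Of all tested genes 0.934% were called as higher there and 0.684% as lower. Without HEM replicate 1 at 3 months 0 astrocyte genes were called, and without HEM replicate 3, 4 or 7 at that age 0 endothelial genes were, against 5 without HEM replicate 3 at 13 months. The 388 calls over all tested genes became 62, 261, 118 and 163 without HEM replicate 1, 3, 4 or 7 at 3 months. They became 648 without HEM replicate 3 at 13 months. The part of astrocytes and endothelial cells in the Ptprz1 difference was not tested. In WT mice Ptprz1 had 0.47 ± 0.26 with age (adjusted p = 0.404). This age comparison in WT mice and the comparison of genotypes at 13 months share the 4 WT libraries of that age.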

How the data were processed

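RNA-seq of microglia-enriched brain homogenate was measured in 19 mice of 4 groups. Per the labels' protocols, the library kit was NEBNext Ultra II RNA. Trimmomatic, HISAT2, featureCounts, DESeq2 and the build mm10 are named in the submitters' processing notes, and versions, annotation, strand setting and filters are not given in the sources used here. The unit of the deposited files is a signal. The values show that reads per gene were divided within each library by a single size factor before deposit, since 100% came back as whole reads (tolerance 0.01).

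Genes that reached 10 in 3 or more libraries were tested on log2(value + 1) with robust limma-trend (limma 3.58.1 in R 4.3.3). The 4 groups shared 1 model with no covariate. Fold changes on this scale understate the change of low genes. Symbols, positions and exon lengths came from GENCODE M21, with a symbol for 99.48% of IDs. Depth is the recovered reads per library. No library was left out. P-values measure the spread between mice.

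The 9 genes, the lists and the rule for named genes were chosen with earlier results of these data known. The rule named the 9 genes, Thy1, the 2 called genes of each list with the smallest p in each direction, and the 3 genes with the highest Pearson r for each of the 9. A few genes that this rule names are not reported here. Other list genes named were chosen after their values were seen. A list's level is the mean log2 level of its tested genes.

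Alternatives were edgeR 4.0.16 with TMM or RLE factors, DESeq2 1.42.0 and voom on the recovered reads, other filters, pseudocounts (0.5 and 10) and scaling, the compared groups alone, the animal number as a block, marker levels as covariates, reads thinned to 60 M per library, and libraries left out. The limma step was tested on simulated data.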

Additional observations from a re-analysis of the deposited data

How the results depend on the processing

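The number of the 9 genes called stayed at 0 in all 5 comparisons under 13 of 16 alternatives. At 13 months HEM against WT it was 2 with DESeq2 (Runx1 and Csf1), 1 with the filter at 50 (Csf1) and 1 with the homeostatic microglia level as covariate (Runx1). Over the 19 libraries left out in turn it ran from 0 to 1 (Csf1). Over all tested genes the 2918 calls at that age became 0 with the neutrophil and erythroid covariate and 0 with the replicate block, ran up to 4032 with DESeq2, and ran from 1707 to 3287 over libraries left out (1733, 1831 and 1707 without WT replicate 7, 8 or 9 at 13 months). The 388 calls with age in HEM mice ran from 0 to 1466, the 170 in WT mice from 0 to 1255, and the 0 calls for the change of the genotype difference up to 938, over the 16 alternatives. The cause of these shifts was not tested. For the replicate block, only animal numbers 7 and 8 occurred in both genotypes at 13 months, so that fit compared few libraries directly.

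Same-numbered animals of different groups deviated together weakly at most. Of 11 such pairs 4 had a correlation over 0.1, in a range from -0.0675 to 0.173. Other cross-group pairs had a median of -0.00483. HEM and WT replicates 7 and 8 at 13 months had 0.107 and 0.126. The share of other pairs over 0.1 was not computed, and the numbers were not taken to pair the mice. With the replicate block Runx1 had 0.14 at 13 months (adjusted p = 0.890), Csf1 had 0.36 (adjusted p = 0.604), and 0 of the 28 other regulators were called. The block also turned the sign of Spi1 (-0.15) and Il34 (0.43) between genotypes at 13 months, of Spi1 (0.087), Irf8 (0.064), Mef2c (0.021), Maf (0.054), Runx1 (0.054) and Il34 (-0.15) with age in WT mice, and of Spi1 (-0.22), Irf8 (-0.13), Runx1 (-0.042), Csf1 (-0.024) and Il34 (0.11) for the change of the genotype difference.

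The other signs of the 9 genes that turned, given next, were of differences that were not called, and that of Myb, which was called, turned as well. The neutrophil and erythroid covariate gave Sall1 0.38, Spi1 -0.021, Maf 0.12, Csf1r 0.099 and Myb -0.22 between genotypes at 13 months. It gave Sall1 0.29 and Runx1 -0.087 with age in HEM mice, and Spi1 -0.069, Csf1r 0.29 and Csf1 -0.047 for the change. The homeostatic microglia covariate gave Sall1 0.14 and Maf 0.052 at 13 months, Csf1r 0.048 at 3 months, Sall1 0.28, Spi1 0.029 and Irf8 0.093 with age in HEM mice, and Sall1 0.11, Maf 0.10 and Csf1r 0.060 with age in WT mice. The neural covariate gave Sall1 0.036 and Csf1r 0.075 at 3 months, Runx1 -0.021 with age in HEM mice, and Sall1 -0.12 and Irf8 -0.026 for the change. Without the 3 libraries that stand apart, the values were Il34 0.028 at 13 months, Spi1 -0.085 at 3 months, Mef2c -0.027 and Maf -0.11 with age in HEM mice, and Sall1 -0.075 and Maf -0.067 for the change. With age in HEM mice, edgeR gave Sall1 0.0070 with TMM and Sall1 0.0052 with RLE factors, DESeq2 gave Sall1 0.0052, and voom gave Maf -0.081 and Runx1 -0.046.

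Over libraries left out in turn, the signs that turned had these ranges. Between genotypes at 13 months they were -0.24 to 0.10 for Sall1, -0.0014 to 0.21 for Irf8 and -0.26 to 0.051 for Il34. At 3 months they were -0.47 to 0.031 for Sall1, -0.085 to 0.17 for Spi1, -0.059 to 0.21 for Irf8, -0.085 to 0.29 for Runx1, -0.27 to 0.067 for Csf1r and -0.083 to 0.45 for Il34. With age in HEM mice they were -0.17 to 0.052 for Sall1, -0.043 to 0.20 for Maf, -0.17 to 0.11 for Runx1 and -0.21 to 0.022 for Il34. With age in WT mice they were -0.40 to 0.10 for Sall1, -0.13 to 0.081 for Maf, -0.32 to 0.014 for Csf1r and -0.077 to 0.45 for Il34. For the change of the genotype difference they were -0.16 to 0.34 for Sall1, -0.057 to 0.19 for Spi1, -0.11 to 0.16 for Irf8, -0.0049 to 0.24 for Maf, -0.32 to 0.014 for Csf1r and -0.061 to 0.13 for Csf1.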
